A study of Mus musculus with 3 samples.

Results

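The genes described are 10 that set the passage of a cell from G1 into S phase: the D cyclins Ccnd1, Ccnd2 and Ccnd3, their kinase partners Cdk4 and Cdk6, their substrate Rb1, and the kinase inhibitors Cdkn1a, Cdkn1b, Cdkn2c and Cdkn2d. They are 10 of 19946 genes measured in any of 3 libraries of single mouse retinal cells, and all 10 were measured in each library. They were chosen by name, in part on the measured Ccnd1 counts of explant photoreceptors at the different doses, so its differences between 500 and 0 nM in the explants are given as a description with no test. The first library held 8 samples of wild-type CD1 retinal explants, taken at embryonic day 14, cultured for 6 days on membranes in medium with 0, 5, 50 or 500 nM of a small-molecule Sstr2 agonist, and labelled as postnatal day 0 (P0), with 2 samples at each dose. The other libraries held 5 samples of retina each, at P0 and at postnatal day 14 (P14), from untreated littermates on a mixed C57BL/6 and CD1 background with an Sstr2 deletion allele that is present in every cell: 1 wild type (Sstr2 +/+), 2 heterozygous (Sstr2 +/-) and 2 knockout (Sstr2 -/-). The number of retinas or animals behind each sample was not given in the sources used here. Below, an explant or a retina is 1 such barcoded sample, which may pool several, and p-values measure the spread between these samples. The study asked whether somatostatin signalling through Sstr2 changes which cell types retinal progenitors make.

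D cyclins are made in response to growth signals and bind Cdk4 or Cdk6. The active kinase phosphorylates the retinoblastoma protein, product of Rb1, which then releases E2F factors that drive the genes of S phase. Inhibitors of the INK4 family (here Cdkn2c and Cdkn2d) bind the kinases themselves, and those of the Cip/Kip family (Cdkn1a, Cdkn1b) bind complexes of cyclin and kinase. In the developing retina Ccnd1 is the main D cyclin of progenitors and is used as their marker, and Cdkn1b and Cdkn2d are known to help postmitotic retinal cells stay out of the cycle.

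The explants held 318 to 1075 cells and 1281682 to 4237324 unique molecular identifiers (UMIs, counted transcripts) each, the P0 retinas 1018 to 1254 cells and 8822880 to 10793649 UMIs, and the P14 retinas 304 to 1000 cells and 1266730 to 5886669 UMIs. Levels are in CPM, counts scaled to a fixed total of UMIs, of the cells of 1 annotated type in 1 sample, summed over at least 10 cells, and 3′ UMI counts do not scale with transcript length, so levels of different genes were set side by side without a length correction. Pairs of libraries shared 4 to 9 cell barcodes. The annotated types carried the markers of their names. Several also had counts for the marker lists of others, with explant RGCs, P0 photoreceptors, neurogenic progenitors and types at P14 among them. P0 photoreceptors held summed primary progenitor markers at a median of 477 CPM. Neurogenic progenitors held photoreceptor precursor markers at 951 CPM in the explants and 728 CPM at P0. Explant RGCs held summed amacrine cell markers at a median of 642 CPM and primary progenitor markers at 331 CPM. P14 amacrine cells held summed horizontal cell markers at a median of 1910 CPM and ganglion cell markers at 1591 CPM, bipolar cells held ganglion cell markers at 1300 CPM, and cones held rod markers at 12376 CPM beside their own at 20956 CPM. Xist, an RNA of female cells, was seen in 98.3% to 99.3% of cells in both explants at 500 nM and in 98.7% at one 5 nM explant, but in 57.7% to 62.4% in the other 5 explants, which held cells of both sexes and so of more than 1 embryo. At P0 it was seen in 99.4% of cells of heterozygous 1 and of knockout 2 and in 1.91% to 2.90% of the other 3 retinas, and at P14 in 72.7% of heterozygous 2 and 1.80% to 4.29% of the others, so sex differed within genotypes. Sstr2 itself was counted at 294 and 375 CPM in the neurogenic progenitors of both P0 knockout retinas, against 112 CPM in the wild type and 189 and 248 CPM in the heterozygous retinas. The extent of the deletion is not given in the sources used here, so these 3′ counts do not check the genotype labels.

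Ccnd1 was the D cyclin of progenitors in these data. It stood at 2331 ± 130 CPM (SD, n = 8 explants) in explant primary progenitors and at 3885 ± 118 CPM (n = 5 retinas) in P0 primary progenitors, and at 584 ± 126 and 1064 ± 146 CPM in the neurogenic progenitors of the 2 libraries, the cells about to leave the cycle. In primary progenitors it made up 97.4% ± 0.570 of all D cyclin UMIs in the explants and 98.6% ± 0.215 at P0. After each cell was thinned to 2000 UMIs, 98.7% ± 0.855 of P0 primary progenitors and 50.5% ± 3.90 of neurogenic progenitors held a Ccnd1 UMI, against 1.54% ± 3.44 of P0 retinal ganglion cells (RGCs), a type that should lack it and that had a median depth of 24853 UMIs. Every sample of primary progenitors lay above every sample of neurogenic progenitors in both libraries. At P14 no retina exceeded 22.2 CPM of Ccnd1 in rods, cones, bipolar cells or amacrine cells, and only Muller glia, the glial cells that descend from the last progenitors, held more, at 110 ± 36.7 CPM. The 5 Muller glia samples did not overlap with those of the next type, bipolar cells.

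Ccnd2 was close to absent. Its highest level in any explant or P0 sample was 10.9 CPM, in the primary progenitors of 1 heterozygous P0 retina, and it had 0 UMIs in explant RGCs, P0 RGCs and P14 cones, where 3 UMIs would have been 4.47, 1.31 and 2.49 CPM over all samples of the type. In P14 Muller glia it was uneven, at 26.3 CPM in the wild type, 22.4 and 0 CPM in heterozygous and 81.4 and 3.34 CPM in knockout retinas. These retinas differed by more than their genotypes did, since the knockouts held both the highest value and one of the 2 lowest. Summed astrocyte markers ran from 0 to 217 CPM and endothelial markers from 814 to 980 CPM in the same Muller glia, and their part in the Ccnd2 values was not tested. Ccnd3 was low in progenitors, at 61.1 ± 15.1 CPM in explant and 50.6 ± 8.83 CPM in P0 primary progenitors. It was highest in P14 Muller glia, at 204 ± 47.4 CPM, where it supplied 60.4% ± 4.85 of D cyclin UMIs against 32.5% ± 6.27 from Ccnd1. In P14 rods Ccnd3 supplied 81.2% ± 6.56 of the few D cyclin UMIs, 25 to 96 per retina. The D cyclin that predominated thus differed between progenitors and the cells of the P14 retina, which were profiled in separate libraries.

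**Figure D1:**
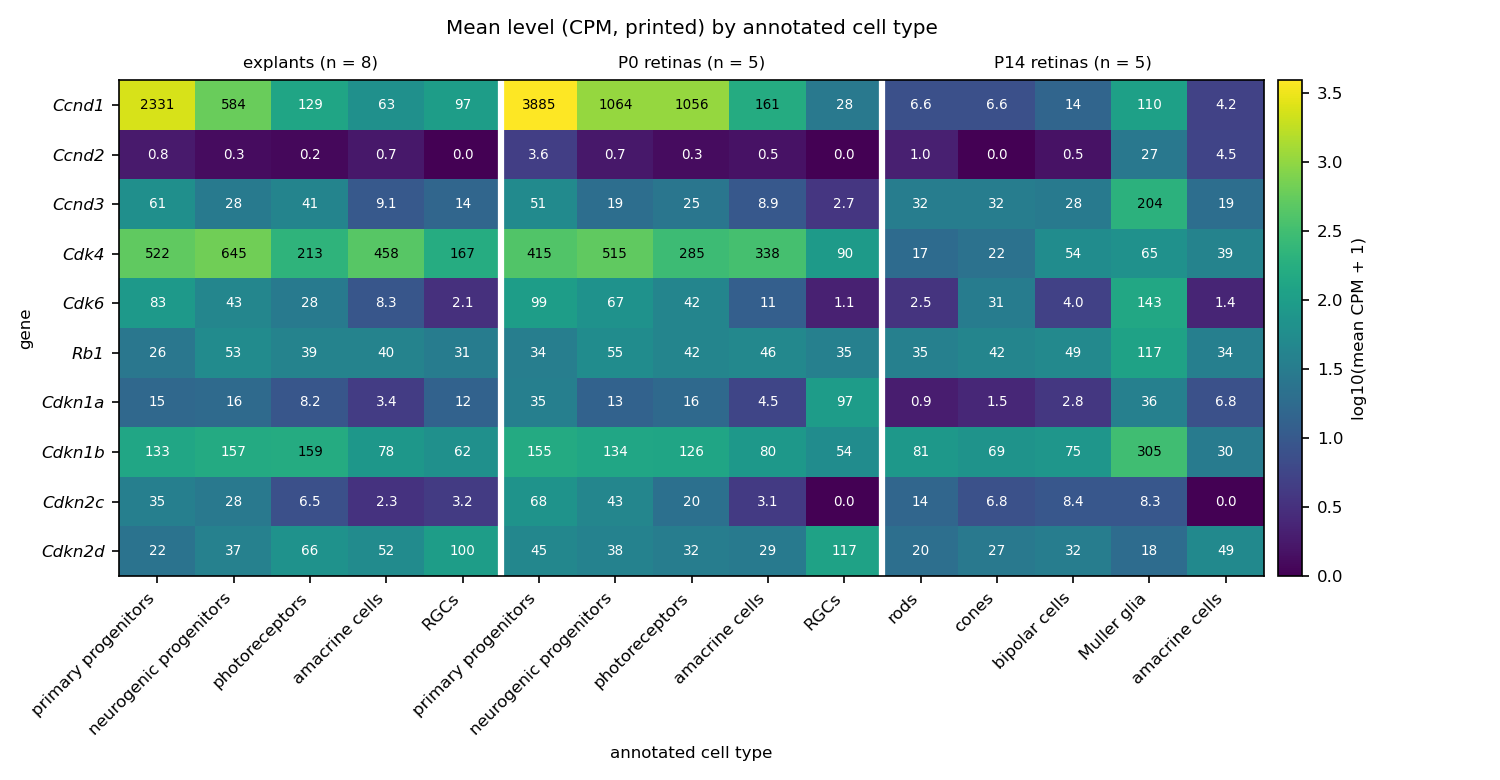
Mean level of each of the 10 genes (rows) in each annotated cell type (columns) of the explants (n = 8, 7 for RGCs), P0 retinas (n = 5) and P14 retinas (n = 5, 3 for amacrine cells), in CPM as printed, with colour on a log10(CPM + 1) scale. Ccnd1 reaches 2331 and 3885 CPM in primary progenitors, and at P14 the columns of Muller glia hold the highest levels of Ccnd3, Cdk6, Rb1 and Cdkn1b.

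The 2 kinases differed in where they were high. Cdk4 was broad at P0 and in the explants: it was higher in neurogenic than in primary progenitors, at 645 ± 54.1 against 522 ± 48.5 CPM in the explants and 515 ± 17.2 against 415 ± 11.3 CPM at P0, and the P0 samples of the 2 types did not overlap whereas those of the explants did. Amacrine cells, which are postmitotic, still held 458 ± 34.5 CPM in the explants and 338 ± 20.1 CPM at P0. At P14 Cdk4 was between 17.0 ± 5.75 CPM in rods and 65.2 ± 6.61 CPM in Muller glia. Cdk6 followed the progenitors more closely, with 99.0 ± 7.37 CPM in P0 primary progenitors, 67.4 ± 7.34 CPM in neurogenic progenitors, 41.7 ± 11.7 CPM in photoreceptors and 11.2 ± 3.89 CPM in amacrine cells, none of which overlapped with its neighbour. Part of the cells annotated as P0 photoreceptors held progenitor transcripts, as described below, and their share in this photoreceptor level was not tested. In P14 Muller glia Cdk6 stood at 143 ± 30.9 CPM, above its P0 primary progenitor level in every retina but knockout 1, which had 104 CPM against a highest P0 value of 109 CPM. Cdk6 was thus the kinase with the higher level in Muller glia and Cdk4 the one with the higher level in progenitors.

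Rb1 varied little between cell types before P14. Its means ran from 25.8 ± 5.21 CPM in explant primary progenitors to 54.7 ± 5.91 CPM in P0 neurogenic progenitors, and neighbouring types in that order overlapped in both libraries. In both it was lower in primary than in neurogenic progenitors in every sample. At P14 Muller glia held 117 ± 17.4 CPM, against 48.6 ± 9.59 CPM in bipolar cells, with no overlap.

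The inhibitors marked different cells. Cdkn1b was present in all types, with its highest level, 305 ± 49.9 CPM, in P14 Muller glia, where the 5 retinas ran from 256 to 386 CPM and the highest value in any other P14 type was 108 CPM. In the explants it was nearly equal in photoreceptors and neurogenic progenitors, at 159 ± 18.1 and 157 ± 22.5 CPM. Cdkn1a, a target of p53, was highest in P0 RGCs, at 114 CPM in the wild type, 114 and 74.3 CPM in heterozygous and 90.0 and 91.6 CPM in knockout retinas. All 5 values lay above every other P0 type, the next being primary progenitors at 34.9 ± 9.30 CPM. In explant RGCs the mean was 12.4 ± 12.8 CPM over 7 explants with 10 to 61 cells each, and 3 of the 7 had no Cdkn1a UMI. The explant RGCs were few and their RGC marker sum was a median of 3861 CPM against 11524 CPM at P0, so the 2 groups of RGCs cannot be compared like for like.

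The mean of Cdkn2d was also highest in RGCs, at 99.8 ± 59.5 CPM in the explants and 117 ± 18.1 CPM at P0. The P0 RGC samples did not overlap with the next type, primary progenitors. Those of the explants, with 58 Cdkn2d UMIs in all, ran from 50.9 to 229 CPM and overlapped with photoreceptors, which reached 75.5 CPM. In the explants Cdkn2d was higher in photoreceptors, at 65.9 ± 9.21 CPM, and amacrine cells, at 52.5 ± 9.22 CPM, than in primary progenitors, at 21.99 ± 4.89 CPM. At P0 that order was turned: primary progenitors held 44.7 ± 3.51 CPM, against 32.1 ± 2.67 CPM in photoreceptors and 29.4 ± 4.85 CPM in amacrine cells. Culture, strain background and library differ together between explants and P0 retinas, both labelled P0, and cannot be told apart. Cdkn2c behaved unlike Cdkn2d outside the progenitors: at P0 it fell from 67.9 ± 3.13 CPM in primary progenitors to 43.0 ± 9.09 CPM in neurogenic progenitors, 20.4 ± 6.47 CPM in photoreceptors and 3.06 ± 1.33 CPM in amacrine cells, with 0 UMIs in RGCs, where 3 UMIs would have been 1.31 CPM. The P0 photoreceptor levels of Cdkn2c and Cdkn2d include annotated cells with progenitor transcripts, described below, whose share in them was not tested.

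Within progenitors the genes differed between classes of cells set by cell-cycle transcripts. Progenitors of each type and library were classed by the share of their UMIs in 40 S-phase genes and 51 G2/M genes, none of them among the 10: the top 25% of cells by one list formed the S and G2/M classes, and cells below the median of both the low class, with cells in the top of both lists put in the class of their larger excess. At P0, 467 of 2797 primary and 76 of 669 neurogenic progenitors lay within 10% of a limit, so the classes are ranges along a score and not cell types. G2/M cells also held more UMIs, with median depths of 11414 to 13781 UMIs per retina against 6184 to 7113 in low cells of the primary progenitors. CPM scales for total UMIs only, and the part of other differences that go with depth was not tested. In the explants 103 of 682 neurogenic and 132 of 1691 primary progenitors were in the top of both lists. At P0 these were 54 of 669 and 16 of 2797. The explant neurogenic classes held 125 S and 114 G2/M cells, so their split rests in large part on the rule for cells in both. Sums are described per retina or explant, with no test.

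At P0 Cdkn2d and Cdkn2c rose together from the low class to the G2/M class. In P0 primary progenitors Cdkn2d was at 5.2 CPM in low cells of the wild type, 5.1 and 2.5 CPM in those of the heterozygous retinas and 1.4 and 2.8 CPM in those of the knockouts. In G2/M cells of the same retinas, in the same order, it was at 83.3 CPM, at 61.7 and 83.6 CPM, and at 95.4 and 92.3 CPM. Means were 3.399 ± 1.69 CPM in low, 42.7 ± 4.77 CPM in S and 83.3 ± 13.2 CPM in G2/M cells, in that order in 5 of 5 retinas. Cdkn2c went from 11.2 ± 5.59 to 81.5 ± 5.06 and 103 ± 10.8 CPM, again in 5 of 5. In P0 neurogenic progenitors the G2/M level was 90.5 ± 18.0 CPM for Cdkn2d and 94.9 ± 14.7 CPM for Cdkn2c, against 11.7 ± 2.54 and 1.74 ± 2.52 CPM in low cells. In the explants G2/M cells were above low cells in 8 of 8 explants for both genes in primary progenitors. Explant neurogenic progenitors gave as few as 2 G2/M cells per explant, and there the G2/M class was higher in 8 of 8 for Cdkn2d and 7 of 8 for Cdkn2c. In neurogenic progenitors thinned to 2000 UMIs, Cdkn2d was seen in 3.79% ± 1.52 of P0 cells with a Ccnd1 UMI and in 6.86% ± 1.61 of those without, lower in 5 of 5 retinas. These shares rest on 1 to 4 cells per retina with both genes and 3 to 7 with Cdkn2d alone. P0 primary progenitors went the other way, at 6.90% ± 1.86 with and 2.86% ± 6.39 without a Ccnd1 UMI, higher in 4 of 5 retinas. Only 35 of them lacked a Ccnd1 UMI.

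Because Cdkn2c and Cdkn2d both rose from the low to the G2/M class at P0, their start-site windows are shown, from 250 bases before to 50 after each start, as RefSeq gives them on GRCm38.p6, on the minus strand and written 5′ to 3′. Capitals mark CCAAT and GGGCGG on either strand, the letters of a CCAAT box and a GC box. Cdkn2c has a pair of starts.

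Cdkn2c, upstream start, chr4:109666707-109667006: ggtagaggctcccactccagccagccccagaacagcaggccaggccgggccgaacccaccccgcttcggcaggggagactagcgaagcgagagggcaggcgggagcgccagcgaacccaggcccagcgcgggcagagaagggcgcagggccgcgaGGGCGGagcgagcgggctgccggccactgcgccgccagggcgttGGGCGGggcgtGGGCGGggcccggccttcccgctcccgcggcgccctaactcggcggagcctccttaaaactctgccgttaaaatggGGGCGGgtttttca
Cdkn2c, downstream start, chr4:109665323-109665622: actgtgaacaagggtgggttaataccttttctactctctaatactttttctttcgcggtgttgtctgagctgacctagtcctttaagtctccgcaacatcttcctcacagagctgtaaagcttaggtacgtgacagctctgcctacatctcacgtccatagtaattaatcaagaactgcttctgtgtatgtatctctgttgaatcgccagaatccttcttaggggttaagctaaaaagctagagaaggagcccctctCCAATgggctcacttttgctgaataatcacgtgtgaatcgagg
Cdkn2d, chr9:21291160-21291459: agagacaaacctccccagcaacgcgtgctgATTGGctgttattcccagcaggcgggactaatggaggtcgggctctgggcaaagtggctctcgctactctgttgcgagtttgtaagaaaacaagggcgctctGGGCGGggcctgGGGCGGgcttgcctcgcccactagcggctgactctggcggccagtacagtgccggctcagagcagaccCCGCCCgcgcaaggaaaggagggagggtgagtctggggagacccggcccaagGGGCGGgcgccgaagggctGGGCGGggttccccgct

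The downstream Cdkn2c window and the Cdkn2d window each held 1 CCAAT, and the upstream Cdkn2c window and the Cdkn2d window held 4 and 5 matches to GGGCGG. Over 32851 windows of the same kind in the genome, 37.4% held CCAAT and 35.7% GGGCGG at least 1 time, so holding a match is common. How many windows held 4 or 5 matches to GGGCGG was not counted. An E2F site of the form TTTCCCGC, TTTCGCGC, TTTGCCGC or TTTGGCGC, found in 2.26% of all windows, and the letters TTTGAA of a cell-cycle homology region, found in 17.9%, were in none of the 10 windows that 7 of the 10 genes have. No window was listed for Ccnd1, Ccnd2 or Rb1.

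Cdkn1a was instead highest in S cells at P0. In P0 primary progenitors it stood at 90.0 CPM in S cells of the wild type, 65.9 and 121 CPM in those of the heterozygous retinas and 55.2 and 77.2 CPM in those of the knockouts, against no more than 9.4 CPM in low and 29.3 CPM in G2/M cells of any retina. In the explants Cdkn1a was not highest in S cells at this cut: primary progenitors held 18.4 ± 13.2 CPM in S and 18.4 ± 8.10 CPM in G2/M cells, and neurogenic progenitors 17.8 ± 27.0 and 30.5 ± 34.6 CPM. For primary progenitors this depended on the cut. With classes of the top 10% they held 30.6 ± 24.2 CPM in S, 15.3 ± 20.9 CPM in low and 7.61 ± 9.95 CPM in G2/M cells. There S was above low in 7 of 8 explants and G2/M above S in 1 of 8. Cdkn1b was higher in G2/M than in low cells of P0 primary progenitors, at 209 ± 12.7 against 106 ± 18.2 CPM, in 5 of 5 retinas. The same direction was seen in 4 of 5 retinas for neurogenic progenitors, and in 6 of 8 explants for primary and 7 of 8 for neurogenic progenitors. Ccnd1 differed by progenitor type. In neurogenic progenitors it was a gene of the S class, at 2491 ± 474 CPM against 360 ± 102 CPM in low and 573 ± 288 CPM in G2/M cells at P0, and at 1757 ± 417 CPM against 223 ± 104 and 309 ± 151 CPM in the explants. The S class was highest in 5 of 5 retinas and 8 of 8 explants. In primary progenitors Ccnd1 varied less, from 3031 ± 299 CPM in low to 4300 ± 185 CPM in G2/M cells at P0, while in the explants the S class was highest, at 3106 ± 253 CPM. Cdk6 in P0 neurogenic progenitors followed Ccnd1, with 138 ± 18.9 CPM in S cells against 45.5 ± 15.5 and 34.3 ± 9.67 CPM in low and G2/M cells.

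**Figure D2:**
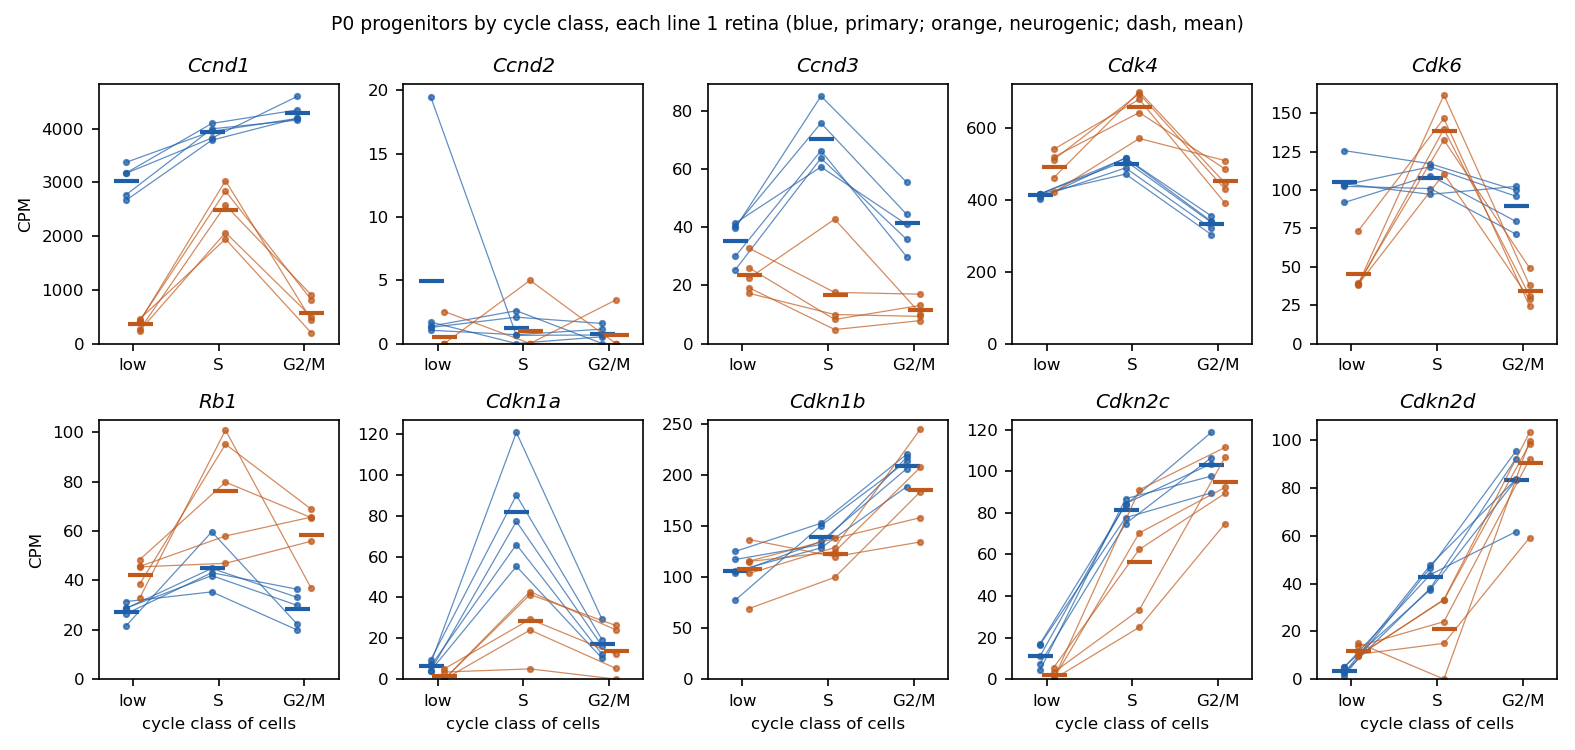
Level in CPM of each gene in low, S and G2/M classes of P0 primary (blue) and neurogenic (orange) progenitors, with 1 line for each of 5 retinas and a dash at the mean. Cdkn2c and Cdkn2d climb from the low to the G2/M class in every retina, Cdkn1a peaks in S cells of primary progenitors, and Ccnd1 and Cdk6 peak in S cells of neurogenic progenitors.

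Ccnd1 in cells annotated as photoreceptors differed between the explants and the P0 retinas. Its level was 129 ± 71.6 CPM in the explants and 1056 ± 214 CPM at P0, and the lowest P0 retina, at 790 CPM, lay above the highest explant, at 296 CPM. At P0 it came from part of the cells. In cells at or below the type's median depth of 4534.5 UMIs Ccnd1 was at 52.9 ± 19.96 CPM, and in deeper cells at 1407 ± 174 CPM. In the explants, where the median depth was 2642.5 UMIs, cells at or below it held 85.3 ± 48.5 CPM and deeper cells 153 ± 82.0 CPM.

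The P0 photoreceptors with a Ccnd1 UMI after thinning, 299 of 1134, differed from the rest in several other transcripts. Hes1, a Notch target of primary progenitors, was at 415 ± 93.9 CPM against 16.2 ± 7.63 CPM in those without, and Sfrp2, another progenitor gene, at 24.9 ± 11.2 against 6.01 ± 3.19 CPM, both higher in 5 of 5 retinas. Their summed photoreceptor precursor markers (Crx, Otx2, Rcvrn, Nrl, Prdm1) were at 1176 ± 138 against 2293 ± 83.7 CPM, lower in 5 of 5. The S-phase and G2/M lists were at 3420 ± 560 and 6915 ± 1218 CPM against 793 ± 95.1 and 1723 ± 115 CPM. The neurogenic progenitor list was not higher, at 169 ± 53.3 against 223 ± 45.2 CPM, above in 1 of 5. Their median depth, by the middle retina, was 10915.5 UMIs against 4074. The 225 Ccnd1-positive explant photoreceptors, of 1488, differed less from the rest: 18.3 ± 14.3 against 6.90 ± 3.098 CPM for Hes1, 2524 ± 238 against 2669 ± 272 CPM for precursor markers, and median depths of 3098.5 against 2769.25 UMIs. In these explant cells the S-phase list was still higher in 8 of 8 explants, at 995 ± 208 against 783 ± 41.6 CPM. The G2/M list was higher in 6 of 8, at 2107 ± 402 against 1902 ± 101 CPM. No doublet caller was run, and whether the P0 cells are doublets, progenitors or early precursors was not tested. P0 amacrine cells held 235 ± 124 CPM of Ccnd1 in cells above and 40.3 ± 10.8 CPM in cells at or below the median depth. There 62.4% to 74.3% of a retina's Ccnd1 UMIs lay in 5 cells, against 19.0% to 36.5% in P0 photoreceptors. Median depths of P0 amacrine cells, by the middle retina, were 7937 UMIs with a Ccnd1 UMI after thinning and 7354 without.

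**Figure D3:**
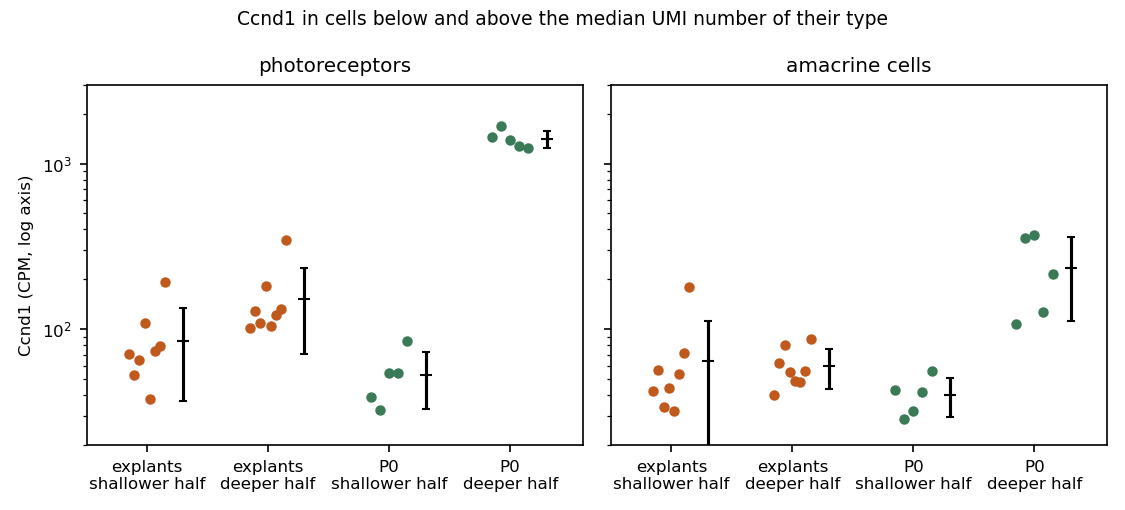
Ccnd1 in CPM (log axis) in photoreceptors and amacrine cells of the explants (orange, n = 8) and P0 retinas (green, n = 5), split at the median UMI number of the type in its library. Each point is 1 sample, and the bar is the mean with its SD. The deeper P0 photoreceptors stand alone at 1407 CPM, while the shallower ones, at 32.7 to 84.5 CPM, overlap with the shallower cells of the explants, at 37.9 to 194 CPM.

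As a description of likeness, genes were ranked by Pearson's r with each member over 25 sums of sample and cell type at P0 and 23 at P14. These sums share libraries and cell types, so no p is given. At P0 the 3 genes most like Ccnd1 were Zfp36l1, Nfix and Usp1 (r from 0.98 to 0.99), and those most like Cdk6 were Mcm5, Pclaf and Myb (all 0.99). Cdkn2c was most like Ncapg, Lockd and Pbk (all 0.99). Cdkn1b was most like Gli3, Lockd and Cdkn2c (all 0.95). Lockd is a noncoding RNA on the same strand as Cdkn1b, whose first base lies 3579 bases after the end of Cdkn1b (chromosome 6, 134920401 to 134925513, GRCm38). Cdkn2d was most like the RGC genes Rbpms and Rbpms2 (0.97 and 0.94) and Mid1ip1 (0.94). For Rb1 no gene exceeded 0.80. At P14 the closest to Ccnd3 were Id3 and Zfp36l1 (both 0.95) and Gm26669 (0.94).

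The other members lie on GRCm38 as follows. Ccnd1 is on chromosome 7 (144929931 to 144939925), Ccnd2 on chromosome 6 (127125162 to 127152193), Ccnd3 on chromosome 17 (47505051 to 47599691), Cdk4 on chromosome 10 (127063534 to 127067920) and Cdk6 on chromosome 5 (3341485 to 3531008). Rb1 is on chromosome 14 (73183673 to 73325822), Cdkn1a on chromosome 17 (29090976 to 29100727), Cdkn2c on chromosome 4 (109660876 to 109667189) and Cdkn2d on chromosome 9 (21288410 to 21291407). UMIs were counted per gene from its 3′ end, so exons and isoforms were not told apart.

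The dose series was compared at 500 against 0 nM in each cell type, by edgeR's quasi-likelihood test on the summed UMIs of all 8 explants (7 for RGCs, with 1 of them untreated and assumed to vary like the other doses), with Benjamini-Hochberg adjustment over all genes tested and a threshold of 0.05. Apart from Ccnd1, 0 of 29 member tests passed in the 5 cell types. Of all genes tested, 0.317% passed in primary progenitors, 0.0988% in neurogenic progenitors, 0.0941% in photoreceptors, 0.269% in amacrine cells and 0% in RGCs. An unadjusted p under 0.05 was found in 6 of the 29, against 5.24% to 8.63% of all genes tested in a cell type, and DESeq2 passed none. Among members other than Ccnd1, the smallest p values were for Ccnd3 in primary progenitors and for Cdkn1a and Cdk6 in neurogenic progenitors. For Ccnd3 the untreated explants gave 48.6 and 42.9 CPM and those at 500 nM gave 80.9 and 69.6 CPM (log2 fold change 0.63, SE 0.21, edgeR adjusted p = 0.314). For Cdkn1a they gave 33.7 and 44.7 CPM untreated and, at 500 nM, 7.84 and 13.3 CPM (log2 fold change -1.80, SE 0.62, edgeR adjusted p = 0.877). For Cdk6 the untreated values were 57.4 and 68.8 CPM, those at 500 nM 41.8 and 24.4 CPM (log2 fold change -0.93, SE 0.35, edgeR adjusted p = 0.877). Both explants at 500 nM lay on one side of both at 0 nM for these 3, yet none passed after adjustment over all genes tested.

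Over the members tested, with Ccnd1 among them in each cell type, the median log2 fold change was -0.09 in primary progenitors (9 tested), -0.12 in neurogenic progenitors (9), -0.06 in photoreceptors (7), 0.07 in amacrine cells (6) and 0.49 in RGCs (3, all above 0), against 0.01, 0.00, 0.00, 0.00 and 0.04 over all genes tested. Ccnd1 led to the choice of genes, so these medians are a description only. Medians without it were not computed. Whether the dose changed a member differently in neurogenic and in primary progenitors was tested in 1 fit with the explant as a block. None of the 8 members tested other than Ccnd1 passed or had an unadjusted p under 0.05, with 484 of 7690 genes at an unadjusted p under 0.05 and 0.13% past the adjusted threshold. For Ccnd1 the difference, neurogenic minus primary, is given as a value only: -0.22 on the log2 scale (SE 0.14).

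Ccnd1 is described here because it led to the choice of genes. In photoreceptors the untreated explants held 88.0 and 96.1 CPM, those at 5 nM 93.9 and 158 CPM, those at 50 nM 81.5 and 105 CPM, and those at 500 nM 114 and 296 CPM. One explant at 500 nM, the second, stood far above the other 7, and the first lay below 1 explant at 5 nM. The fitted log2 fold change was 1.12 (SE 0.22) with both, 0.34 without the second 500 nM explant and 1.72 without the first. In amacrine cells the untreated explants held 41.1 and 60.2 CPM of Ccnd1, those at 500 nM 62.9 and 133 CPM, and those between 42.0 to 63.1 CPM. Again the second explant stood apart, and the log2 fold change of 1.08 (SE 0.23) became 0.45 without it and 1.497 without the first. In RGCs the same explant held 199 CPM, against 52.8 to 118 CPM in the other 6. In primary progenitors, where Ccnd1 is abundant, it was not apart: 2292 CPM in a range of 2098 to 2489 CPM, and the fold change there was 0.09 (SE 0.09). These fold changes and SEs are descriptions, and no test result is given for Ccnd1 in the explants.

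The excess in the second 500 nM explant was seen in all 3 postmitotic types. The 5 cells with most Ccnd1 held 36.9% of its Ccnd1 UMIs in photoreceptors, 32.1% in amacrine cells and 53.7% in RGCs (58 cells). In the other 7 explants they held 25% to 45.7% in photoreceptors and 17.4% to 55% in amacrine cells. After thinning to 2000 UMIs a Ccnd1 UMI was seen in 25.5% of its photoreceptors (37 of 145), 19.8% of its amacrine cells (37 of 187) and 22.4% of its RGCs (13 of 58). In the other 7 explants the shares were 11.7% to 16.7% in photoreceptors and 7.37% to 14.0% in amacrine cells, and in RGCs of the 6 others with enough cells 6.67% to 18.2%. RGCs should lack Ccnd1, but those of the explants also held primary progenitor markers. Their median sum was 331 CPM, against 143 CPM in explant photoreceptors and 148 CPM in explant amacrine cells. Over the explants the RGC share, 12.9% ± 5.68 at a median depth of 3079.5 UMIs, lay within the spread of photoreceptors, 15.4% ± 4.43 at 2642.5 UMIs. It also lay within that of amacrine cells, 10.97% ± 4.28 at 4742.5 UMIs.

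Markers of other types were measured beside this. In photoreceptors Hes1 was at 8.80 and 6.27 CPM in untreated explants and at 4.49 and 5.96 CPM with 500 nM, and Sfrp2 at 8.80 and 4.18 CPM against 2.99 and 9.94 CPM. The S-phase list summed to 972 CPM in the photoreceptors of the second 500 nM explant, against 719 to 868 CPM in the other 7, and the G2/M list to 2238 CPM against 1751 to 2044 CPM. In its amacrine cells the S-phase list, at 851 CPM, lay within the range of the others, 739 to 872 CPM. That explant was also highest for photoreceptor precursor markers in amacrine cells, at 145 CPM against 47.1 to 86.2 CPM, and in RGCs, at 223 CPM against 20.4 to 97.9 CPM. All 8 explants were pooled before droplets were formed. The part of free RNA or of mixed cells in the Ccnd1 values was not tested. Both explants at 500 nM had Xist in nearly all cells and both at 0 nM were mixed, so that dose and sex cannot be told apart between whole explants. In cells with a Xist UMI alone, the Ccnd1 log2 fold change was 1.20 (SE 0.24) in photoreceptors and 1.00 (SE 0.26) in amacrine cells.

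**Figure D4:**
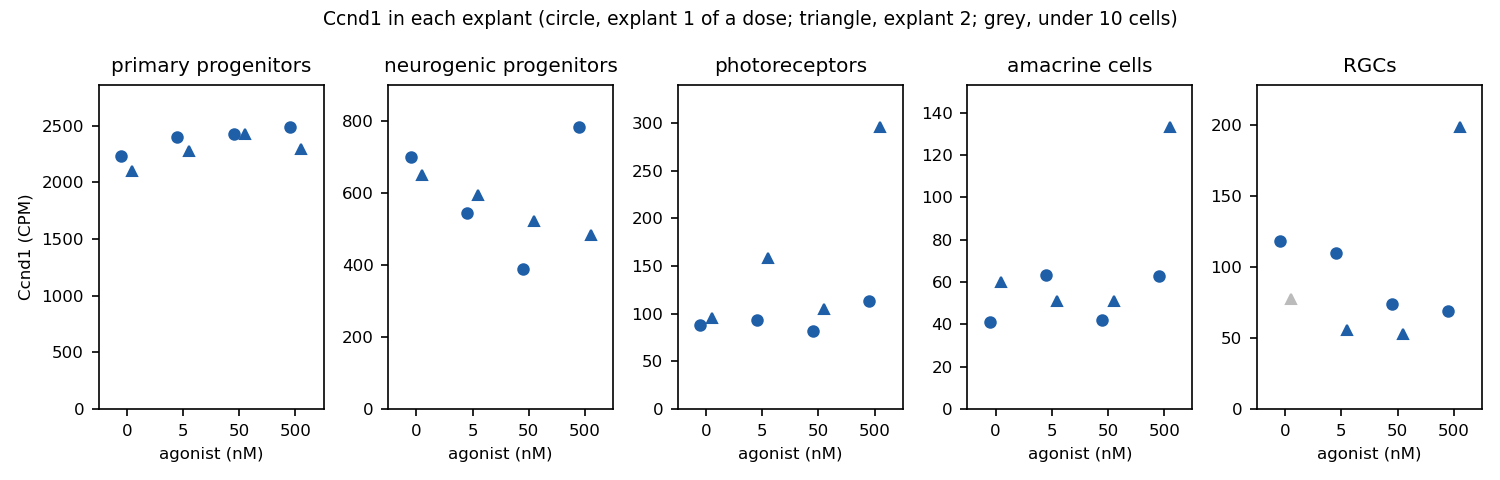
Ccnd1 in CPM (linear axes from 0, one scale per panel) in each explant by agonist dose and cell type. Circles and triangles are the 2 explants of a dose, and grey marks an explant with under 10 cells of the type. In photoreceptors, amacrine cells and RGCs 1 explant at 500 nM, the triangle, stands above all others, and in primary progenitors it does not.

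The allelic series asked whether loss of Sstr2 alters these genes. At P0, edgeR's quasi-likelihood test of knockout against wild type, with all 5 retinas in the fit, passed 0 of 42 member tests over the 5 cell types. With Ccnd1 included, 8 of the 42 had an unadjusted p under 0.05, and without it 4 of 37, against 3.87% to 7.43% of all genes tested in a cell type. DESeq2 also passed none. Of all genes tested, 0.0251% passed in primary progenitors, 0.0334% in neurogenic progenitors, 0.00987% in photoreceptors, 0.00964% in amacrine cells and 0.658% in RGCs. At each age the single wild-type retina adds nothing to the estimate of the spread. The smallest p was for Ccnd1 in RGCs, with 12.002 CPM in the wild type, 29.9 and 6.75 CPM in heterozygous and 71.8 and 17.9 CPM in knockout retinas (log2 fold change 1.94, SE 0.67, edgeR adjusted p = 0.218). Of the 51 Ccnd1 UMIs in knockout 1, 46 were in 5 cells of 26, and without that retina the fold change was 0.52. In amacrine cells the wild type held 82.1 CPM of Ccnd1, the knockouts 94.8 and 157 CPM, but the heterozygous retinas 252 and 218 CPM (log2 fold change 0.65, SE 0.24, edgeR adjusted p = 0.998), so the genotypes had no order by dose of the allele. In primary progenitors the knockouts, at 3996 and 3840 CPM, lay on both sides of the wild type, at 3966 CPM (log2 fold change -0.04, SE 0.06, edgeR adjusted p = 0.993). For Ccnd1 in that type the spread was small.

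At P14 the same test, with 3 retinas in place of 5 for amacrine cells, passed 0 of 28 member tests. Of these 1, a test of Ccnd1, had an unadjusted p under 0.05, and 0 of the 25 without Ccnd1 did, against 1.73% to 4.54% of all genes tested in a cell type. DESeq2 passed none. Of all genes tested, 0.0211% passed in rods, 0.412% in cones, 0.091% in bipolar cells, 0.0567% in Muller glia and 0% in amacrine cells, where both heterozygous retinas had under 10 cells. The smallest p values were for Ccnd1 in Muller glia, Cdk4 in rods and Cdk6 in cones. Ccnd1 in Muller glia stood at 90.5 CPM in the wild type, 92.4 and 81.0 CPM in heterozygous and 116 and 172 CPM in knockout retinas (log2 fold change 0.66, SE 0.29, edgeR adjusted p = 1.00). Both knockouts lay above the other 3 retinas, but the difference did not pass after adjustment over all genes tested. Cdk4 in rods stood at 26.2 CPM in the wild type, at 17.7 and 15.9 CPM in the knockouts, but the heterozygous retinas, at 14.3 and 10.8 CPM, lay below both (log2 fold change -0.62, SE 0.31, edgeR adjusted p = 1.00). Cdk6 in cones, which were 11 to 34 cells per retina, stood at 9.94 CPM in the wild type, 13.4 and 56.2 CPM in heterozygous and 41.5 and 33.9 CPM in knockout retinas (log2 fold change 1.89, SE 1.11, edgeR adjusted p = 1.00).

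**Figure D5:**
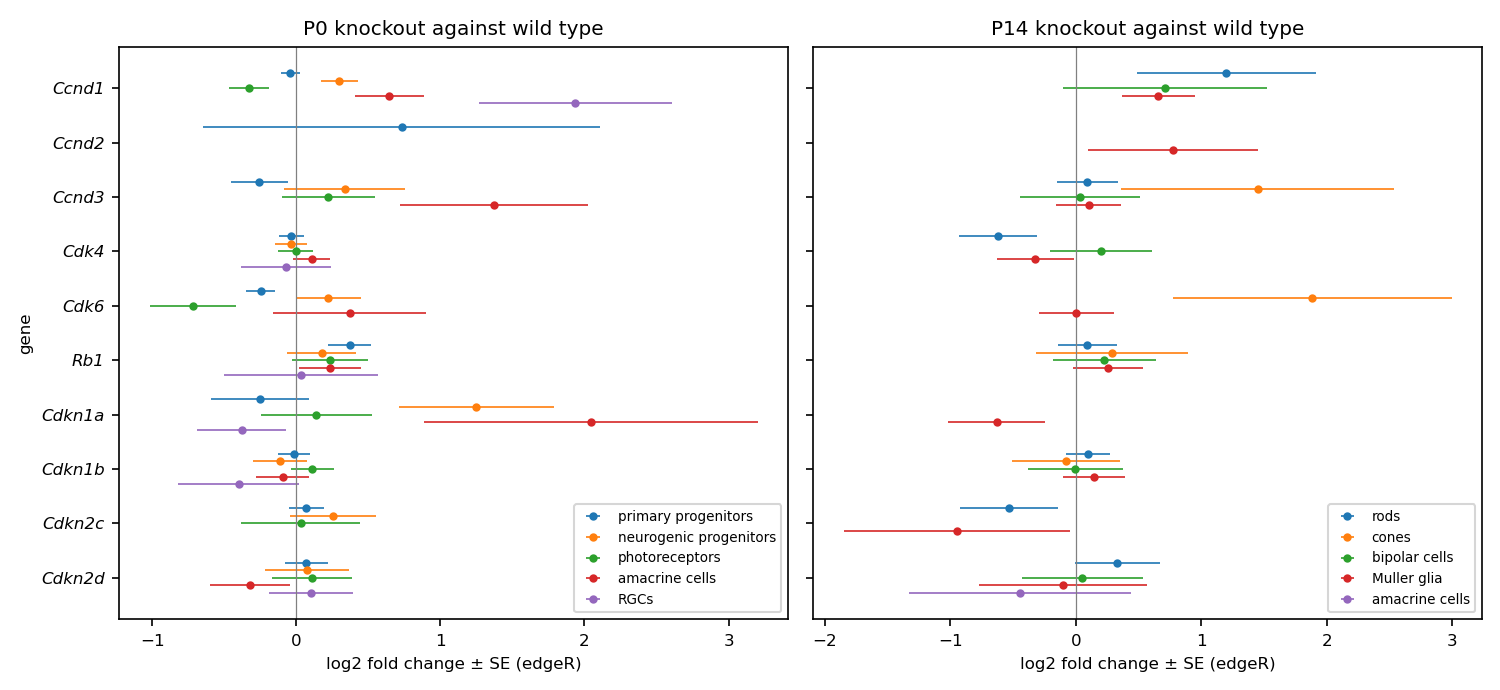
Knockout minus wild type on the log2 scale, with its standard error (edgeR, n = 2 knockout and 1 wild-type retina, spread from all 5 retinas, or 3 for P14 amacrine cells) for each gene and cell type in which it was tested, at P0 (left) and P14 (right). None passed an adjusted p of 0.05, and the widest bars belong to genes of low count.

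A list of 28 other genes of the pathway was followed through the same fits: cyclin E, Cdk2, the Rb relatives, E2F and DP factors, the other inhibitors, p53, Mdm2 and Myc genes among them. The list was chosen with earlier results of these data known. Its calls fell in explant neurogenic progenitors and P14 cones, where 0.0988% and 0.412% of all genes tested passed. At P0 0 of 107 tests over the 5 cell types passed, beside 0.00964% to 0.658% of all genes tested in a cell type. In the explants 1 of 70 did: Cdkn1c, the third Cip/Kip inhibitor, was lower at 500 nM in neurogenic progenitors, where the explants held 5.23 and 6.64 CPM, against 69.3 and 65.4 CPM untreated, with 22.03 and 62.4 CPM at 5 nM, then 9.62 and 9.37 CPM at 50 nM (log2 fold change -3.44, SE 0.52, edgeR adjusted p = 1.02e-04). All 4 explants at 50 and 500 nM lay below all 4 at 0 and 5 nM. The counts behind this were 35 and 19 UMIs at 0 nM and 2 and 3 UMIs at 500 nM, and DESeq2 did not call it (log2 fold change -3.50, adjusted p = 0.289). At P14 1 of 50 tests passed: Mdm2, which marks p53 for degradation, was higher in knockout cones, at 73.4 and 102 CPM, than in the wild type, at 12.4 CPM, or the heterozygous retinas, at 35.8 and 22.5 CPM (log2 fold change 2.71, SE 0.63, edgeR adjusted p = 0.00939). It rested on 23 and 18 UMIs in the knockouts and 5 in the wild type, and was not called by DESeq2 (adjusted p = 1.00) or by edgeR without knockout 1 or without knockout 2 (adjusted p = 0.996 and 0.997).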

How the data were processed

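Single cells were profiled by MULTI-seq, in which samples carry lipid-bound barcodes and are pooled into 1 droplet library. The authors deposited matrices of unnormalised UMI counts with their own annotation of each cell's sample and type; per the labels these were made with Cell Ranger 3.1.0 and Seurat 3 on mm10. UMIs of at least 10 cells of 1 type in 1 sample were added up and expressed as CPM. The study tested single cells; here sums were tested with edgeR 4.0.16 (TMM scaling, filterByExpr, quasi-likelihood test, R 4.3.3) over all genes with Benjamini-Hochberg adjustment, and with DESeq2 1.42.0 as an alternative. Every explant dose or every genotype of an age entered the fit, except in P14 amacrine cells, where the heterozygous retinas had under 10 cells; explant RGCs lacked 1 untreated sample for the same reason. Cells were thinned to 2000 UMIs (seed 11) for shares of cells with a UMI, and shallower cells were left out. No doublet caller was run. Intervals were not computed, and SDs are between samples. The scripts were tested on simulated counts. The 10 genes, the marker lists and the pathway list were chosen with earlier results of these data known. All 10 genes are named, with fold changes for those called or, where none was, for those with the smallest p. The deposited SCT-normalised values were not used. Some marker sums are not reported here.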

Additional observations from a re-analysis of the deposited data

How the results depend on the processing

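Members past the threshold in the explants (Ccnd1 aside) and at P14 numbered 0 under every alternative run, and 0 to 0 with 1 sample left out. At P0 the number was 0, but 1 without the filter on low counts (Ccnd1 in amacrine cells, log2 fold change 0.64), 1 for knockout against wild type and heterozygous together (Ccnd1 in RGCs, 1.46), and 0 to 1 with 1 retina left out: 1 without knockout 1 (Ccnd1 in amacrine cells, 0.96) and 1 without knockout 2 (Ccnd1 in neurogenic progenitors, 0.49). These calls fall in different cell types and the cause was not tested. In the main P0 fits 0.00964% of all genes tested passed in amacrine cells, 0.658% in RGCs and 0.0334% in neurogenic progenitors. The shares in the alternative fits are not reported here, so these calls cannot be set against their background. Ccnd1 in P0 amacrine cells turned from 0.65 to -0.17 without the 5% of cells with the most UMIs, to -0.86 against the heterozygous retinas and to -0.36 against both genotypes. Ccnd1 in P0 neurogenic progenitors turned from 0.30 to -0.052 against the heterozygous retinas. Cdk4 in P14 rods turned from -0.62 to 0.33 against the heterozygous retinas and to 0.012 against both genotypes.

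The single wild-type retina of each age cannot be left out. No paired analysis was possible because the deposited annotation gives no replicate numbers shared between groups. With no thinning or thinning to 3000 UMIs, 212 shares of cells with a UMI moved by more than 1 SD between samples and 88 did not: the Ccnd1 share in explant photoreceptors, 15.4% at 2000 UMIs, was 28.1% at 3000, where shallower cells were left out, and 22.2% unthinned, and in P0 RGCs 1.54% became 32.3% unthinned. With classes of the top 10% of cells 9 differences between cycle classes moved and 71 did not, and 4 of 8 Ccnd1 levels by depth moved. The split of Ccnd1 by cell depth was chosen after seeing the data.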
